A study of Bos taurus with 10 samples.

Results

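On day 18, 52 of 4608 cDNA clones gave a low signal in the endometrium of every cycling control cow and a strong signal in every pregnant twin. The clones were chosen by their intensities as deposited, in twin pairs where both animals had a value, with at least 4 such pairs required. A clone was kept when its intensity was at most 3 in every control twin used and at least 10 in every pregnant twin used. Because the contrast between pregnant and control twins chose these clones, its size is given below as a description and without a test. Of the 52 clones, 47 had values in all 5 pairs, and 5 lacked pair 4.

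The endometrium is the lining of the uterus. Around this time the elongated bovine conceptus has not yet attached, and its trophoblast secretes interferon tau into the uterine lumen. Interferon tau keeps the corpus luteum, the source of progesterone, from regressing and switches on many interferon-stimulated genes in the endometrium. Glands of the endometrium also change what they secrete to nourish the conceptus. Which genes the 52 clones derive from is not known here, since the files pair no clone with a gene and 0 identifiers matched RefSeq's list of bovine genes (ARS-UCD2.0 assembly). For the same reason the tissue could not be checked against its marker genes.

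All 10 animals were non-lactating Simmental cattle between 61 and 69 months old, and each twin pair was monozygotic, made by splitting an embryo. Cycles were synchronised with cloprostenol, a prostaglandin analogue. Pregnant twins received in vitro produced blastocysts after standing heat, and control twins a sham transfer of medium without embryos. Intercaruncular tissue of the ipsilateral caudal horn was taken, from pregnant animals only where it had touched an embryo. Probes labelled with 33P were hybridised to 3 arrays per animal, both twins at the same time. The spotted clones came from libraries subtracted to favour transcripts raised by pregnancy in pair 4, so the clone set was itself made to hold many such clones. The control of pair 2 carries a control title and source but the treatment text of a pregnant animal. Without pair 2 the rule kept 64 clones, the 52 among them, whose median log2 difference was then 5.51. Leaving out a pair only removes conditions, so the 52 had to be among the 64. These counts do not tell which label of that animal is right. In whole tissue, fewer cells of a type and less RNA per cell cannot be told apart.

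The signal of these clones in control twins was near that of a typical clone on the arrays. Between 59.3% and 72% of the clones measured were at most 3 in a given control twin, the 72% being of the 3072 clones with a value in the control of pair 4, and 2461 clones (53.4%) stayed at or under 3 in every control twin used. Only 792 clones (17.2%) reached 10 in every pregnant twin used. The 52 clones were 2.11% of the former set and 6.57% of the latter. Ranked among all clones of the same animal, the 52 had a median percentile of 57.3, 37.9, 31.5, 61.6 and 47.4 in the controls of pairs 1 to 5. In their pregnant twins it lay at percentile 94, 87.8, 91.4, 91.6 and 92.1. Ranks do not depend on how a sample is scaled, but the limits that chose the members set much of this. An intensity of 10 was reached by only 21.3% (pair 4) to 28.1% (pair 2) of the clones measured in a pregnant twin. In each pair the members stood around the middle of the array in the control and near its upper end in pregnancy. "Near silent" thus describes a signal at the level of the typical clone in control tissue. No blank spots were used here to tell that level from no transcript at all, and 0 of the 255 control values lay at the lower limit set for the log scale.

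Over pairs 1 to 5 the median intensity of the members in pregnancy was 94.3, 53.8, 48.0, 62.9 and 66.8. In the control twins it was 1.88, 1.20, 0.425, 1.52 and 1.15. The pregnant values ran from 10.18 to 225 and the control values from 0.2 to 3, so the groups could not overlap under the rule. For comparison, the groups failed to overlap with pregnancy above control in 7.86% of all clones. The lowest pregnant intensity of a clone was between 3.53 and 36.53 times its highest control intensity, with a median of 19.9. Together the members carried between 2% (pair 2) and 5.53% (pair 4) of the summed intensity in pregnant samples, and between 0.0494% and 0.206% (pair 4) in control samples. The shares in pair 4 are of the 3071 or 3072 clones with values there, those of other pairs of 4608; without pair 4 the highest shares were 5.1% and 0.128%, both in pair 1.

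After each sample was brought to a common median, the median log2 difference of the members, pregnant minus control, was 5.42, with a range from 2.84 to 6.11. On intensities as deposited the median was 5.99, because control twins had lower sample medians than their pregnant partners. Over all clones the median difference was -0.33 with centring and 0.19 without it. After centring, 51 of the 52 members passed 8-fold, 39 passed 16-fold, 28 passed 32-fold and 4 passed 64-fold. Among all clones these counts were 142, 65, 33 and 4. As deposited, the counts at these folds were 52, 48, 35 and 26 for the members and 213, 107, 47 and 29 for all clones. In a fit of all clones (limma, twin pair as a block), 52 of 52 members were called higher at an adjusted p under 0.05, where 11.5% of all clones were called after centring and 15.9% as deposited. The rule used the same contrast, so these counts carry no further information about the members.

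The members fell into a large set of like clones and a mixed remainder, and 26 of them followed a single profile over the animals. Likeness was measured as the Pearson correlation over the 10 samples of centred log2 intensities, after the mean of each group had been removed, among the 47 members with values in all 5 pairs. Clones linked at 0.95 or more through any chain formed a set of 26 clones, and the correlations within that set ran from 0.72 to 0.99 with a median of 0.94. Such profiles share the hybridisation of each animal, and over all clones with complete values the median correlation was 0.20. Of all clone pairs 0.17% reached 0.95, against 11.4% of the pairs of members. The set holds 21 clones with the prefix 18e and 5 with 18f, from 11 plates, and 0 with 18c. The 18e and 18f clones number 1536, as do the 18c clones without pair 4 and the 18c clones with it. If the 3 arrays per animal divided the clones in this way, a signal shared by an array could enter the profile. This was not tested. On intensities as deposited, the largest set held the same 26 clones. When every pair of clones in a set had to reach 0.95, the largest set held 7 clones, all among the 26.

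The 26 clones were mostly brighter and more strongly raised than the other members, with median rises of 54.3-fold against 15.7-fold after centring. In pregnancy their median intensity was 139, 58.9, 60.9, 76.1 and 110.4 over pairs 1 to 5, against 2.12, 0.985, 0.37, 1.68 and 1.08 in the control twins. The pregnant animal of pair 1 was the highest for 24 of the 26 clones and that of pair 5 for the remaining 2, while pairs 2 and 3 supplied the lowest value in 15 and 11 clones. As deposited, the control of pair 1 was highest in 24 clones and that of pair 3 lowest in all 26. Part of this order depends on the scaling. After centring, the pregnant animal of pair 1 was highest in 16 clones and that of pair 2 lowest in 26. Among the centred controls pair 4 was highest in 18 clones and pair 1 in 8, and pair 3 was lowest in 21. The medians used to centre pair 4 were of the 3071 or 3072 clones with values there, those of other pairs of 4608. The centred level of pair 4 beside other animals thus rests on an unlike set of clones. After centring, each of the 26 rose between 41.1-fold and 69.3-fold, and 2 of the other 26 members passed 32-fold. As deposited, the 26 rose between 61.2-fold and 103-fold, and 9 of the other 26 passed 32-fold.

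Clone 18e-01-H05, whose profile was most like the rest of this set, measured 140.4, 66.1, 65.8, 89.2 and 112 in pregnancy, in the order of pairs 1 to 5. Its control twins had 1.94, 0.95, 0.34, 1.68 and 1.05. Pairs 1 and 5 were thus the highest in pregnancy, and the control of pair 3 stood lowest. The log2 difference was 5.90 (SE 0.271), a 59.5-fold rise.

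The members with the largest differences belonged to the same set. Clone 18f-02-B04 measured 144, 65.9, 60.2, 117 and 121 in pregnancy and 1.91, 0.93, 0.38, 0.87 and 1.17 in the control twins, with the pair differences between 5.63 and 6.44 on the log2 scale. Clone 18e-01-D03 measured 143, 75.8, 51.6, 96.8 and 111 against 2.31, 0.71, 0.29, 1.12 and 1.03. The lowest pregnant value was 31.5 times the highest control value in the former and 22.3 times in the latter. Clone 18e-05-H07, at 192, 55, 59.5, 115 and 128 in pregnancy and 2.12, 1.02, 0.36, 1.04 and 1.28 in controls, rose by 6.03 (SE 0.227), with the control of pair 3 again the lowest. Clone 18e-06-F04, at 153, 65.4, 56.9, 108 and 108 against 1.83, 1.09, 0.36, 1.07 and 1.12, rose by 5.99 (SE 0.208). Clone 18e-2(VS)-B10, among the 5 brightest, rose by 5.50 (SE 0.226), with pregnant values of 74.0 to 163 and controls of 0.65 to 2.80. Clone 18e-06-A12, named after its values were seen, held the highest single intensity of any member, 225 in the pregnant animal of pair 1, against 62.5 to 137 in the other pregnant animals and 0.42 to 2.73 in controls.

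Within the set, clones differed in how steady their rise was from pair to pair. Clone 18e-2(VS)-F02 had the steadiest, with centred differences of 5.31, 5.75, 5.70, 5.22 and 5.88 on the log2 scale and an SD over pairs of 0.29. The 3 members with the widest spread, 18f-1(VS)-C02, 18f-04-G08 and 18e-03-G08, had SDs of 1.29, 1.15 and 1.12. After centring, all 3 had their smallest difference in pair 4, at 4.05, 4.50 and 4.15, and their largest in pair 5, at 7.51, 7.44 and 6.91. For 18f-1(VS)-C02 the controls were 2.12, 1.20, 0.35, 2.61 and 0.54, and the pregnant values 153, 68.8, 54.7, 68.2 and 125. The control of pair 4 was thus the highest and that of pair 5 among the lowest.

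Some clones above the control limit had a like profile. Among clones outside the 52 with complete values, 9 (0.298%) correlated at 0.95 or more with the mean profile of the 26. All 9 carried the prefix 18e or 18f, reached 10 in every pregnant twin and exceeded 3 in at least 1 control twin. Clones 18e-04-G10 and 18e-01-C07 had highest control intensities of 3.28 and 3.31 and rose by 5.46 and 5.98 on the log2 scale, within the range of the 26. Another 6 of the 9 had smaller rises, between 1.33 and 2.61, and 18f-01-G05 rose by 4.28. Their highest control values ran from 3.2 for 18f-06-E11 through 9.59 for 18e-06-B06 to 98.02 for 18e-04-D12, so a few lay far above the limit. These clones, named after their values were seen, show that a shared profile went with rises of very different size.

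The other 26 members were dimmer and more varied. In pregnancy their median intensity was 26.1, 31.8, 29.5, 31.5 and 40.0 over pairs 1 to 5, against 1.33, 1.73, 0.77, 1.27 and 1.33 in the controls. The median rise was 3.97 on the log2 scale, with a range from 2.84 to 5.57. Of these, 11 were 18e or 18f clones and 15 were 18c clones, 5 of which lacked pair 4 and could not enter the comparison of profiles. The pregnant animal of pair 5 was highest in 9 of the 11, as deposited and after centring, in contrast to the set of 26, where pair 1 led.

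Clones 18e-2(VS)-F11 and 18f-02-E10 had a correlation of 0.97 and show that order. The former had 29.5, 33.1, 37.4, 32.8 and 52.4 in pregnancy and 1.36, 1.72, 0.98, 1.64 and 1.79 in the controls. The latter had 26.2, 32.6, 39.8, 36.3 and 60.4 against 0.94, 1.36, 0.61, 1.79 and 1.32. In both, pair 5 was the highest pregnant animal and, as deposited, pair 1 the lowest. The lowest animal depends on the scaling. Among the 11 clones pair 1 was lowest in 6 as deposited and in 1 after centring, where pair 2 was lowest in 8. Clones 18f-01-A11 and 18f-01-B06, named after their values were seen, also peaked in pair 5, at 62.0 and 65.2, while their other pregnant values lay between 27.7 and 36.9. The dimmest member of these prefixes, 18e-04-H09, measured 10.9, 15.8, 15.1, 13.1 and 20.1 in pregnancy and only 0.40, 0.56, 0.20, 0.43 and 0.63 in controls, a 23.8-fold rise.

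Among the remaining 18f clones, 18f-05-H03 was as bright as many of the set of 26, with 143, 85.1, 42.9, 106 and 169.95 in pregnancy and 2.61, 2.21, 0.76, 0.85 and 1.41 in the controls. Pair 5 was again its highest pregnant animal, and its centred differences of 6.31 and 6.57 in pairs 4 and 5 exceeded the 4.74 to 5.29 of the other pairs. Clone 18f-2(VS)-F01, named after its values were seen, was high in the pregnant animal of pair 1 (66.3) and lower in the others (15.5, 14.9, 15.7 and 33.1), with controls of 2.75, 1.90, 0.47, 0.63 and 0.57. For this clone both twins of pair 1 were the highest of their group. Clone 18e-2(VS)-D08, also named after its values were seen, had 44.0 in the pregnant animal of pair 2 and 36.4, 17.1, 18.9 and 23.0 in pairs 1, 3, 4 and 5. Its peak in pair 2 held only as deposited. After centring, pair 2 was the highest pregnant animal in 0 of the 11 18e and 18f members outside the set of 26.

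After centring, the 15 members with the prefix 18c rose between 7.18-fold and 29-fold with a median of 12.3-fold, and 0 of them passed 32-fold. As deposited, they rose between 10.7-fold and 43.2-fold with a median of 18.1-fold, and 5 passed 32-fold. Their pregnant values lay between 10.18 and 66.55. A few stood out from the rest of the prefix by brightness. Clone 18c-06-B01 had the evenest bright signal as deposited, with 57.2, 61.0, 45.2, 66.5 and 58.4 in pregnancy and 1.54, 1.75, 0.92, 1.61 and 1.08 in the controls. Its mean on that scale was 57.7 ± 7.83 (SD, n = 5) against 1.38 ± 0.36 (SD, n = 5). The centred log2 difference was 4.84 (SE 0.194).

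Clone 18c-15-C04 rose as much, by 4.86 (SE 0.234), but with a weak pair 1. It had 13.4, 64.3, 62.6, 59.0 and 62.4 in pregnancy and 0.33, 1.5, 0.78, 2.26 and 1.51 in controls. Clone 18c-16-A02, correlated with it at 0.97, had 17.3, 56.4, 53.0, 45.4 and 60.8 against 0.53, 1.44, 1.30, 2.12 and 1.63. In these clones the pregnant animal of pair 1 was the lowest, and its control twin was the lowest control, so the rise within pair 1 (4.85 for 18c-15-C04) was close to that of pairs 2 and 5. In the set of 26, as deposited, both twins of pair 1 were mostly the highest. Clone 18c-15-E10, named after its values were seen, also had its lowest pregnant value in pair 1, at 13.1 against 34.0 to 45.3 in the other pregnant animals.

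As deposited, other 18c members were brightest in pairs 1 and 2. Clone 18c-12-A12 had 45.5, 45.6, 14.8, 21.6 and 14.8 in pregnancy and 2.99, 2.92, 0.52, 1.36 and 1.06 in the controls, so the twins of a pair were high or low together. Its rise of 3.53 varied little between pairs, with an SD of 0.25 after centring and 0.41 as deposited. Clone 18c-02-E11 had 39.7, 49.7, 10.3, 13.2 and 12.5 against 2.38, 2.01, 0.39, 1.56 and 0.81. As deposited, pairs 1 and 2 again stood above the rest in both groups. Part of this order depends on the scaling. With centring, pair 2 held the highest pregnant value in 0 of the 15 18c members, against 5 as deposited. Pair 4 then held the highest control in 7 of the 10 measured there, against 2 as deposited, but pair 4 was centred on fewer clones than the others. After centring, 18c-13-E03 had the steadiest rise of the members, at 3.50, 3.46, 3.58, 3.22 and 3.30 over the pairs (SD 0.15). As deposited its SD was 0.29, and that of 18c-06-B01 was smaller, at 0.27. Its levels were 14.4, 34.0, 19.9, 20.8 and 16.7 in pregnancy against 0.91, 2.15, 0.91, 1.41 and 1.34.

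The 5 members without pair 4 lie on the part of the 18c plates for which that pair has no values. Their rises ran from 3.35 to 4.25. Clone 18c-24-B11 was even in pregnancy as deposited, at 23.1, 19.6, 23.4 and 20.4 in pairs 1, 2, 3 and 5, with controls of 1.37, 1.04, 1.01 and 3.00. Clones 18c-28-C04, 18c-29-C06 and 18c-2(VS)-B12, named after their values were seen, were lowest in the pregnant animal of pair 2, at 15.2, 14.4 and 12.1. Pairs 1, 3 and 5 gave 18.2, 42.1 and 44.5 for the first, 29.8, 40.0 and 45.2 for the second and 42.2, 34.1 and 41.3 for the last. The remaining clone of the 5, 18c-26-C08, had 12.1, 12.9, 19.0 and 22.0, with pairs 3 and 5 above pairs 1 and 2, as in the first and second of these clones.

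The twin pairs differed in how far the members rose, and pair 4, from which the libraries were made, was among the pairs with the smallest rise. The median difference of the members was 5.14, 4.82, 5.66, 4.69 and 5.88 in pairs 1 to 5 after centring, and 5.62, 5.34, 6.53, 5.36 and 6.23 as deposited. The medians of pair 4 lack the 5 members, all 18c, without values there, and as deposited pair 2 was slightly lower than pair 4. Centring of pair 4 also used only the clones with values there. Pair 3 held the largest difference for 28 of the members after centring and pair 5 for 18. Pair 4 held the smallest for 29 of the 47 members measured there. As deposited, pair 3 held the largest for 42, and the smallest was shared by pairs 4 (21 members) and 2 (19 members). Over all clones the pair medians after centring were -0.18, -0.26, -0.42, -0.14 and -0.31, nearly the reverse of the order of the members. Pairs 3 and 5, highest in the members, were the lowest there, and pair 4, lowest in the members, was the highest. Without centring the medians of all clones were 0.24, 0.25, 0.36, 0.35 and 0.00, with pair 3 highest as in the members. The SD over pairs had a median of 0.64 in the members and 0.55 over all clones. Serum progesterone in the pregnant animals of pairs 1 to 5 was 3.2, 2.6, 7.6, 2.5 and 5.7 ng/ml per the labels. In the control twins of pairs 1, 3, 4 and 5 it was 2.2, 4.5, 1.9 and 4.3 ng/ml, with no value used for pair 2. Pairs 3 and 5 were thus the highest in both groups. The relation of progesterone to the rise of the members was not tested with so few animals.

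Each pair was also left out of the choice, so that its values could be read without having entered the rule. For pair 4 the values are still not free of selection, because the libraries behind the spotted clones were subtracted in that pair. The limits were applied to the other 4 pairs, with values in at least 3 of them required. This chose 63, 64, 53, 53 and 58 clones when pairs 1 to 5 were left out. In the left-out pair 52 of 63 (82.5%), 52 of 64 (81.2%), 52 of 53 (98.1%), 47 of 48 with values (97.9%) and 52 of 58 (89.7%) met both limits. Among all clones the share meeting both limits in those pairs was between 2.21% and 3.99%. The chosen clones were higher in the pregnant twin in every case, as deposited and after centring, with median rises of 4.99, 4.41, 5.62, 4.65 and 5.52 after centring. The smallest single rise was 0.41, in pair 2, where the control animal has the contradictory treatment text. In left-out pair 2 the pregnant limit was missed more often (54 of 64 reached it) than the control limit (62 of 64 kept it), and in pair 1 the reverse held (61 and 54 of 63).

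Prefix and plate, which the rule did not use, were unevenly represented. Clones with the prefixes 18e and 18f made up 33.3% of the clones on the arrays and 71.2% of the members (37 of 52, exact Clopper-Pearson 95% interval 56.9% to 82.9%, counting error only). By prefix the members were 25 of 768 18e clones (3.26%), 12 of 768 18f clones (1.56%) and 15 of 3072 18c clones (0.488%). Members occurred on 7 of 8 18e plates, 7 of 8 18f plates and 12 of 32 18c plates, with at most 5 on a plate. Clones of a cDNA can recur, and the set of 26 like profiles shows that members are not independent, so the interval is too narrow. What the prefixes stand for is not stated in the labels.

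Clones that were already above 3 in every control twin, reached 10 in every pregnant twin and rose at least 2-fold in every pair give a contrast. There were 71 of these, and 62% had the prefix 18e or 18f. They were brighter in pregnancy than the members, with a median of 130.39 against 59.31, and had a median control intensity of 18.76 against 1.19. Their median rise of 2.17 on the log2 scale was smaller than the 5.42 of the members, which the control limits that part these sets favour. Pair 4 again had the smallest median rise, at 1.70, and pair 5 the largest, at 2.52. Their median SD over pairs was 0.39. The strongest pregnant signals on the arrays therefore lay outside the 52 clones, whose pregnant values never exceeded 225, where the brightest clone of a pregnant sample reached between 676.19 and 937.09.

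Values close to the limits give an idea of how sharp the choice was. Just inside, the lowest pregnant intensities were 10.18 for 18c-13-A07, 10.3 for 18c-02-E11 and 10.92 for 18e-04-H09, and the highest control intensities were 3 for 18c-24-B11, 2.99 for 18c-12-A12 and 2.95 for 18e-06-G12. Just outside, 18c-26-E06, 18f-05-D05 and 18c-13-H04 missed only the pregnant limit, with lowest pregnant values of 9.96, 9.62 and 9.51. Clones 18e-1(VS)-C08, 18e-05-B09 and 18f-06-E11 missed only the control limit, with highest control values of 3.01, 3.08 and 3.2. The rise of 18e-05-B09, 5.79, lay within the range of the set of 26, and that of 18e-1(VS)-C08, 5.22, just below its lowest value of 5.36. In all, 14 clones missed the pregnant limit in a single twin, 10 of them in pair 2, and 17 missed the control limit in a single twin, 9 of them in pair 1 and 6 in pair 5.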

How the data were processed

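Per the labels, 33P-labelled cDNA from total RNA of each animal was hybridised to 3 arrays of PCR-amplified clones. The authors deposited 1 linear intensity per clone and sample. How images were read, background removed and signals normalised is not given in the sources used here. Array B of pair 4 was left out by the authors. Sample medians spanned a 3.26-fold range, and the number of arrays limits the precision.

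The rule for members used intensities as deposited. For differences, samples were scaled to share 1 median, a floor was set at the 5th percentile of positive values (0.116), and log2 was taken. The median of a sample was over the clones with values in it, which were fewer in pair 4. This centring moved the median difference of all clones by 0.52. All 4608 clones were fitted with limma 3.58.1 in R 4.3.3 (lmFit, eBayes) with the twin pair as a block, and calls were made at a Benjamini-Hochberg adjusted p under 0.05. SEs come from that fit. The replicates are separate animals. Pairing follows the series design, animal numbers and equal ages. Deviations from group means correlated between twins with r from 0.334 to 0.733 over 3071 clones, so the replicate block was kept. On simulated data for this comparison (4608 clones, 100 changed by 2 and 100 by 4 on the log2 scale) the fit recovered 91% and 98%, and 3.08% of its 195 calls were false. The simulated noise was independent between clones, with rises and falls in equal number. In the data clones were correlated (median 0.20) and 530 were called higher, so these rates may not hold there.

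Clones were named by fixed rules: the 5 brightest in pregnancy, the 2 with the largest difference per prefix, the 3 most and the 3 least variable over pairs, the 3 nearest each limit on both sides, and the most typical clone of each of the 3 largest sets of like profile. In a set of 2 the first by name was taken. Clones named outside these rules are marked as such. The members, lists and tests were chosen with earlier results of these data known. Alternatives were other limits, scalings, floors and filters, the fit without the block, and leaving out each pair.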

Additional observations from a re-analysis of the deposited data

Results flagged for a closer look

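Among 70 groups of 4 or 5 values examined, 5 held a value far from the rest, and chance marks about 1 in 20. All 5 concern 18c clones. The pregnant intensity of 18c-15-C04 was 13.37 in pair 1, while the other pregnant animals had 58.95 to 64.26. The control intensity of 18c-13-A07 was 2.88 in pair 2, while the other controls had 1.10 to 1.23, and this control is the animal with the contradictory treatment text. The log2 difference of 18c-06-B01 was 5.41 in pair 5 and 4.60 to 4.75 elsewhere. For 18c-12-A12 it was 3.96 in pair 3, against 3.33 to 3.46. Pair 5 gave 2.42 for 18c-24-B11, where pairs 1, 2 and 3 gave 3.59 to 3.72.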

How the results depend on the processing

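The number of members followed the limits and the scaling. It was 52, and became 22 with a control limit of 2, 80 with 5, 34 with a pregnant limit of 20, 28 on median-centred and 16 on quantile normalised intensities with the same limits. With stricter limits, all clones found had to be among the 52. With the other scalings this was not fixed in advance, and all 28 and all 16 clones found were among the 52. Leaving out a pair gave 53 to 64 (64 without pair 2). The share of 18e and 18f clones, 71.2%, was 56% with a pregnant limit of 5, 97.1% with 20, 85.7% after centring and 87.5% after quantile normalisation, and 62.5% (without pair 2) to 73% with a pair omitted, always above the 33.3% of all clones. The median rise of 5.42 was 5.99 as deposited and 4.57 with a pseudocount of 1 in place of the floor, and between 5.17 and 5.51 without a pair (5.51 without pair 2). Without the replicate block 294 of all clones were called higher (limma), against 530 with it. That count was 350 without pair 5 and up to 462 without another pair (417 without pair 2). All 52 members stayed called under each of the 11 alternatives run, the fit without the block included. All 27 named clones kept their direction and call in 216 of 216 alternative fits. The members and the near misses among the named clones were chosen through this contrast, so both counts carry no further information about them. Over all clones, 501 (floor at the 10th percentile) to 731 (as deposited) were called under the other scalings and floor percentiles. The set of 26 like clones held 7 with complete linkage and 19 to 32 otherwise. Alternatives on this set were chosen after seeing the data. Signal over background could not be judged, because no blank spots were used here.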
